A study of Mus musculus with 58 samples.

Results

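Heme oxygenase 1, the ferritins, ceruloplasmin, ferroportin, the transferrin system and a pair of divalent metal transporters were followed in the brains of 58 mice. The genes were chosen by symbol for their known roles in iron and heme handling (*Hmox1*, *Fth1*, *Ftl1*, *Cp*, *Slc40a1*, *Slc11a1*, *Slc11a2*, *Tfrc* and *Trf*). Earlier results of these data were known at that choice, so the shares of all genes set beside counts of these genes are descriptions. All 9 were found among the 15171 genes of the count table. RNA came from cortex and hippocampus around the injury site, pooled within each mouse. It was taken 14 days after controlled cortical impact (TBI) or a sham operation with craniotomy alone, in mice aged 3 months. Every mouse carried human *APOE* in place of the mouse gene on both chromosomes (targeted replacement, C57BL/6 background), either *APOE3* (E3) or *APOE4* (E4), and either both functional *Abca1* copies (Abca1+/+) or a single one (Abca1+/-). Sham and TBI groups held 8 and 8 E3/Abca1+/+, 7 and 7 E4/Abca1+/+, 7 and 6 E3/Abca1+/-, and 7 and 8 E4/Abca1+/- mice, males and females in each. No group carried mouse *Apoe*, and the labels name no mouse without a craniotomy.

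Iron in the brain is taken up as a complex with transferrin by the transferrin receptor and leaves the endosome through DMT1. It is stored inside ferritin cages of heavy and light chains, and leaves the cell through ferroportin with the help of a ferroxidase such as ceruloplasmin. Heme, which comes from dying cells and from blood that leaks at an injury, is opened by heme oxygenase 1, which releases its iron. Iron regulatory proteins adjust this system after transcription by binding a hairpin, the iron-responsive element. It holds back translation when it lies in a 5′ untranslated region and protects the mRNA when it lies in a 3′ untranslated region.

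The elements are shown because such hairpins are a known route by which iron acts on these genes, while the counts below measure mRNA alone. They were searched in GENCODE M21 transcripts (GRCm38, the build mm10 named in the submitters' processing notes) as a bulged C, 5 bases, the loop CAGTGN and 5 bases that pair with the first 5. Capitals mark the loop.
*Fth1*, 5′ untranslated region, chr19:9982733-9982759, plus strand: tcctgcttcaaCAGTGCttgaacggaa
*Ftl1*, 5′ untranslated region, chr7:45459780-45459806, minus strand: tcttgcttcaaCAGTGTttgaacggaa
*Slc40a1*, 5′ untranslated region, chr1:45925466-45925492, minus strand: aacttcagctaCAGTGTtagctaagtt
*Tfrc*, 3′ untranslated region, chr16:32631220-32631246, plus strand: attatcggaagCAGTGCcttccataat
*Tfrc*, 3′ untranslated region, chr16:32631599-32631625, plus strand: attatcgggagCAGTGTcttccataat
*Tfrc*, 3′ untranslated region, chr16:32631664-32631690, plus strand: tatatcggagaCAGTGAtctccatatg
*Tfrc*, 3′ untranslated region, chr16:32631711-32631737, plus strand: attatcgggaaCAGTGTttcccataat
A match was found in 294 of 21877 coding genes (1.34%), and *Tfrc* was the 1 gene among them with 4 matches. The other 5 genes of the list held no match to these letters, among them *Slc11a2*, whose mRNA has a known form with a 3′ element that this pattern does not describe. A match is a description of the sequence and no measurement of binding. On the same build *Hmox1* spans chr8:75093621-75100589 (plus strand), *Fth1* chr19:9980598-9985098 (plus), *Ftl1* chr7:45457944-45459884 (minus), *Cp* chr3:19957054-20009145 (plus) and *Slc40a1* chr1:45908068-45926523 (minus). *Slc11a1* spans chr1:74375195-74386062 (plus), *Slc11a2* chr15:100387898-100425072 (minus), *Tfrc* chr16:32608920-32632794 (plus) and *Trf* chr9:103204001-103230444 (minus).

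Total counts per mouse ranged from 4421308 to 37877346. Abca1+/- libraries were deeper (median 1.89e+07 counts, n = 28) than Abca1+/+ libraries (median 8.35e+06, n = 30), 21 of the 28 lying above every Abca1+/+ library, so *Abca1* copies and depth cannot be told apart. *Abca1* itself was lower in Abca1+/- mice over all groups (log2 fold change -0.42, standard error 0.09, edgeR adjusted p = 0.000816). Taken singly, only E3 sham mice passed the test (-0.45, standard error 0.08, edgeR adjusted p = 0.00999). The difference was -0.71 in E3 TBI (standard error 0.18, edgeR adjusted p = 0.124) and -0.36 in E4 sham mice (standard error 0.09, edgeR adjusted p = 0.0785). In injured E4 mice it was -0.18 (standard error 0.25, edgeR adjusted p = 0.755). The 7 neuronal markers summed to between 5606 and 8907 CPM over all mice. CPM are read counts relative to library size, scaled by edgeR's TMM factors. Choroid plexus markers summed to 11.5 to 42.9 CPM in 42 libraries and to 301.1 to 2060 CPM in the other 16, which were 8 sham and 8 TBI mice, 12 of the 28 females and 4 of the 30 males. They were also uneven by genotype. In Abca1+/+ mice they were 0 of 8 sham and 1 of 8 TBI mice with E3, and 2 of 7 and 2 of 7 with E4. In Abca1+/- mice they were 3 of 7 sham and 1 of 6 TBI mice with E3, and 3 of 7 and 4 of 8 with E4. Comparisons of genotypes thus also differ in these libraries. One E4/Abca1+/- sham mouse stood apart with 153.0 CPM summed over 5 injury response genes chosen after their values were seen, against a sham median of 42.1 CPM and a lowest TBI value of 183.0 CPM. These genes were *Clec7a*, *Itgax*, *Cd68*, *C3* and *Vim*.

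In sham mice, levels divided by transcript length followed the order *Fth1*, *Trf*, *Ftl1*, *Tfrc*, *Slc11a2*, *Cp*, *Hmox1*, *Slc40a1*, *Slc11a1*. *Fth1*, which codes for the ferritin heavy chain that oxidizes iron on entry, had 1113 ± 96.3 CPM per kilobase (SD, n = 29). *Trf*, which codes for transferrin, the iron carrier of the extracellular fluid that the brain makes mainly in oligodendrocytes, followed with 95.5 ± 15.3 CPM per kilobase. *Slc11a1*, a phagocyte transporter that pumps metal ions out of the phagosome, was at the other end with 1.02 ± 0.33 CPM per kilobase. The neighbours *Cp*, *Hmox1* and *Slc40a1* (3.62 ± 0.95, 3.37 ± 0.75 and 3.30 ± 0.36 CPM per kilobase) did not differ beyond their spread, and the ranges of *Tfrc* (17.2 to 27.7) and *Slc11a2* (14.6 to 19.6 CPM per kilobase) overlapped. The place of *Ftl1*, at 41.8 ± 3.97 CPM per kilobase, is uncertain. Of the 50-base windows of its transcript, 90.6% also occur in other annotated genes, mostly ferritin light chain pseudogenes, so its reads could be dropped or shared. For *Trf*, 79.8% of windows are shared with the overlapping annotated gene *Gm20425*, against 6.6% for *Fth1* and at most 2.0% for the other genes.

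**Figure D1:**
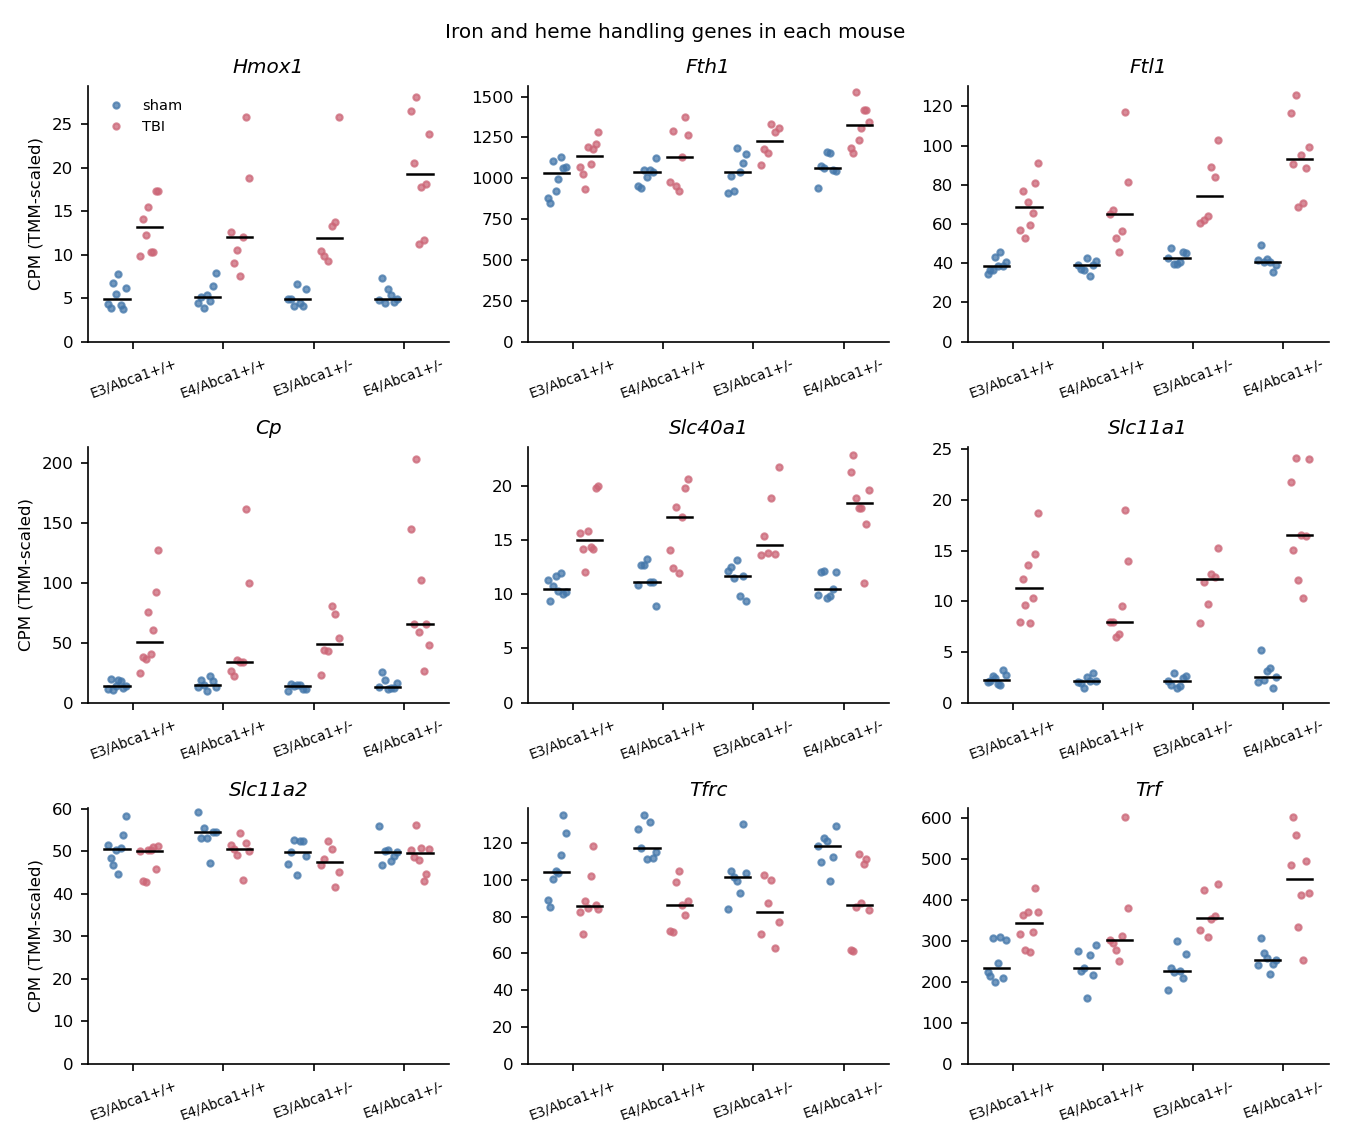
Each panel plots 1 gene in CPM (TMM-scaled, axis from 0) for every mouse, sham in blue and TBI in red, by genotype, with the group median as a black line. *Slc11a1* in TBI mice lay at 6.48 to 24.1 CPM, above all 29 sham mice at 1.45 to 5.17 CPM, while *Slc11a2* kept overlapping ranges and *Tfrc* lay lower after TBI.

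The first question of the design is what TBI changed within each genotype. After TBI, *Hmox1*, *Ftl1*, *Cp*, *Slc40a1*, *Slc11a1* and *Trf* rose in all 4 genotypes, *Fth1* rose in the Abca1+/- mice of both isoforms, and *Tfrc* fell in E4 mice with either number of copies. *Slc11a2* passed the test in no genotype. In E3/Abca1+/+ mice 6 of 9 genes rose and 0 fell, where 13.3% of all genes tested rose and 9.49% fell by edgeR's quasi-likelihood test. A gene was called at an edgeR adjusted p (Benjamini-Hochberg, over all genes) under 0.05, here and below. The 6 genes that rose in E4/Abca1+/+ mice and the 1 that fell stand beside 9.24% and 4.5% of all genes. Among E3/Abca1+/- mice, 7 genes rose and 0 fell, beside 13.7% and 10.1% of all genes. Finally, 7 genes rose and 1 fell in E4/Abca1+/- mice, beside 19.7% and 12.7%. Over the 9 genes, the log2 fold change had a median of 0.57 for E3 mice with both *Abca1* copies and 0.66 with a single copy. For E4 mice these medians were 0.53 and 0.79. Those of all genes lay between 0.00 and 0.03.

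Sham and TBI ranges did not overlap for 5 genes that were higher in E3/Abca1+/+ mice (4.36% of all genes), 3 in E4/Abca1+/+ mice (3.76%), 6 in E3/Abca1+/- mice (6.57%) and 4 in E4/Abca1+/- mice (7.36%). *Tfrc* in E4/Abca1+/+ mice was the only gene of the list whose TBI values lay wholly below the sham values (0.765% of all genes did, against 2.03%, 3.39% and 2.39% in E3/Abca1+/+, E3/Abca1+/- and E4/Abca1+/- mice). Pooling all genotypes, only *Slc11a1* separated all 29 TBI from all 29 sham mice, as 1.05% of all genes did in that direction. Averaged over the genotypes, 7 genes rose (29% of all genes did) and 2 fell (24.3%). Tissue of mixed cells was measured, in which more cells of a type and more RNA per cell cannot be told apart. All 8 microglial markers rose in every genotype, their sum lying at 341.1 to 521 CPM in sham and 609 to 1264 CPM in TBI mice, and the part this played in the values below was not tested.

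**Figure D2:**
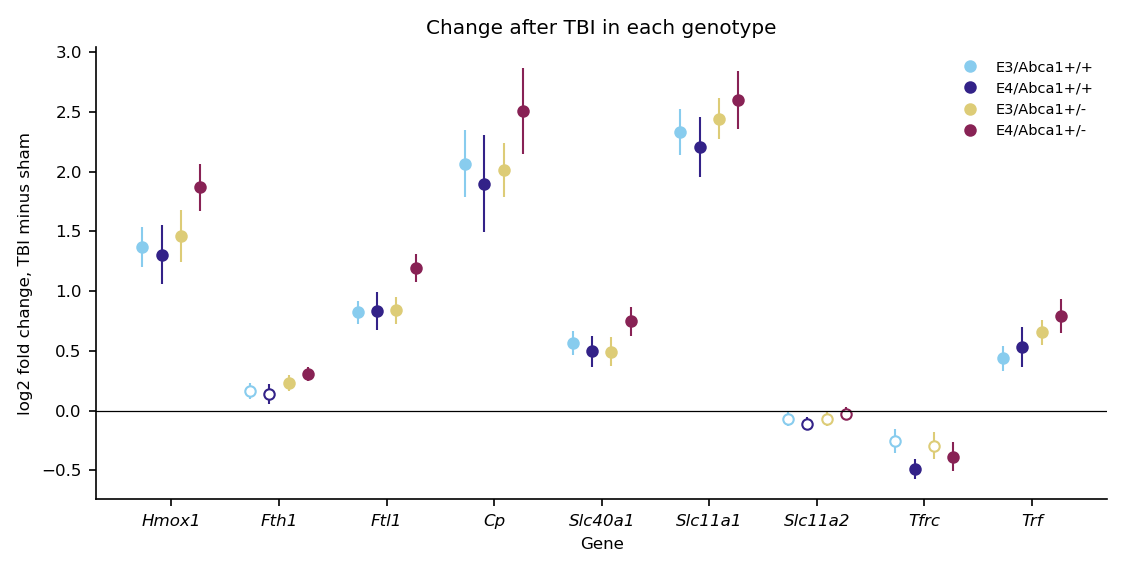
Points give the log2 fold change, TBI minus sham, of each gene in each genotype with its standard error as the bar, filled where the edgeR adjusted p was under 0.05 and open where it was not. *Slc11a1* and *Cp* lay between 1.90 and 2.60, *Hmox1* between 1.30 and 1.87, and *Slc11a2* between -0.11 and -0.03, its value in E4/Abca1+/- mice turning to 0.08 after thinning to equal depth.

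*Hmox1*, the inducible enzyme that opens the heme ring and frees its iron, rose 2.47-fold to 3.65-fold across the genotypes. In E3/Abca1+/+ mice it ran from 3.798 to 7.77 CPM in sham mice (median 4.92, n = 8) and from 9.84 to 17.4 CPM in TBI mice (median 13.2, n = 8), without overlap (log2 fold change 1.37, standard error 0.17, edgeR adjusted p = 4.33e-06). The E4/Abca1+/+ values ran from 3.89 to 7.87 CPM in sham mice (median 5.17, n = 7) and from 7.53 to 25.8 CPM in TBI mice (median 12.0, n = 7), and 6 of the 7 TBI mice lay above every sham mouse (log2 fold change 1.30, standard error 0.25, edgeR adjusted p = 0.00174). With a single *Abca1* copy, levels in E3 mice ran from 4.08 to 6.64 CPM in sham mice (median 4.93, n = 7) and from 9.27 to 25.9 CPM in TBI mice (median 11.9, n = 6), again without overlap (log2 fold change 1.46, standard error 0.22, edgeR adjusted p = 0.000118). One of these TBI mice, at 25.9 CPM, lay far above the next at 13.8 CPM, and without it the log2 fold change was 1.18. In E4/Abca1+/- mice *Hmox1* ran from 4.48 to 7.37 CPM in sham mice (median 4.93, n = 7) and from 11.2 to 28.2 CPM in TBI mice (median 19.3, n = 8), all 8 TBI mice lying above all sham mice (log2 fold change 1.87, standard error 0.20, edgeR adjusted p = 2.31e-06). *Hmox2*, the constitutive heme oxygenase, averaged 50.7 CPM in sham and 50.2 CPM in TBI mice. The log2 ratio of *Hmox1* to *Hmox2* CPM was -3.76 to -2.61 in sham mice (median -3.31) and -2.72 to -0.92 in TBI mice (median -1.97), a description without a test.

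Of the ferritin chains, the heavy chain moved little and the light chain more. *Fth1* rose in Abca1+/- mice by 1.17-fold in E3 and 1.24-fold in E4 mice. In E4/Abca1+/- mice it ran from 941 to 1162 CPM in sham mice (median 1061, n = 7) and from 1153 to 1531 CPM in TBI mice (median 1325, n = 8), 7 of 8 TBI mice lying above every sham mouse (log2 fold change 0.30, standard error 0.06, edgeR adjusted p = 0.000942). The E3/Abca1+/- ranges were 907 to 1188 CPM in sham mice (median 1036, n = 7) and 1081 to 1331 CPM in TBI mice (median 1230, n = 6) (log2 fold change 0.23, standard error 0.07, edgeR adjusted p = 0.0206), and leaving out TBI replicate 4 or 6 took the adjusted p to 0.0535 or 0.0504. In Abca1+/+ mice the test was not passed, with a log2 fold change of 0.16 in E3 (95% interval 0.03 to 0.30, edgeR adjusted p = 0.0924) and 0.14 in E4 mice (95% interval -0.02 to 0.31, edgeR adjusted p = 0.301). Without the 16 libraries rich in choroid plexus markers, which left 4 E4/Abca1+/- mice a group, *Fth1* changed there by 0.21 (standard error 0.08, edgeR adjusted p = 0.110). Averaged over all genotypes it then changed by 0.20 (edgeR adjusted p = 0.000452).

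*Ftl1*, which codes for the light chain that helps the iron core form, rose 1.77-fold to 2.28-fold, with no overlap of sham and TBI mice in any genotype. E3/Abca1+/+ mice had 34.3 to 45.8 CPM in sham mice (median 38.6, n = 8) and 53.0 to 90.9 CPM in TBI mice (median 68.6, n = 8) (log2 fold change 0.83, standard error 0.10, edgeR adjusted p = 2.57e-06). Values in E4/Abca1+/+ mice went from 33.5 to 42.9 CPM in sham mice (median 39.0, n = 7) and from 45.8 to 117 CPM in TBI mice (median 64.99, n = 7) (log2 fold change 0.83, standard error 0.16, edgeR adjusted p = 0.00172), the highest TBI mouse being the same one that was highest for *Hmox1* in that group. For E3/Abca1+/- mice the ranges were 39.5 to 47.8 CPM in sham mice (median 42.8, n = 7) and 60.8 to 103 CPM in TBI mice (median 74.1, n = 6) (log2 fold change 0.84, standard error 0.11, edgeR adjusted p = 4.25e-05). The widest gap in medians was in E4/Abca1+/- mice, which ran from 35.5 to 49.4 CPM in sham mice (median 40.6, n = 7) and from 68.7 to 126 CPM in TBI mice (median 93.1, n = 8) (log2 fold change 1.19, standard error 0.12, edgeR adjusted p = 1.31e-06). Every fold of *Ftl1* rests on counts that its pseudogenes could have reduced. The log2 ratio of *Fth1* to *Ftl1* CPM was 4.41 to 4.97 in sham mice (median 4.68) and 3.34 to 4.33 in TBI mice (median 4.002), so no TBI mouse reached the sham range. This ratio is given as a description, and the genes share libraries and depth.

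**Figure D3:**
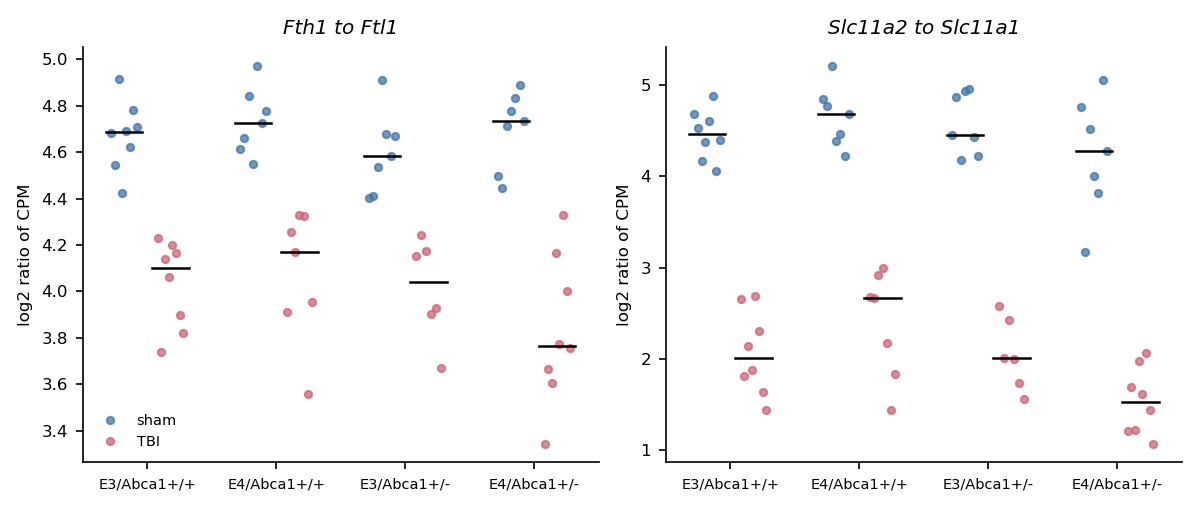
Points are mice and black lines group medians, with the log2 ratio of *Fth1* to *Ftl1* CPM on the left and of *Slc11a2* to *Slc11a1* CPM on the right, sham in blue and TBI in red, on axes that do not start at 0. In both panels every TBI mouse lay below every sham mouse, with medians of 4.002 against 4.68 and of 1.98 against 4.46.

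On the export side, *Slc40a1* codes for ferroportin, the known route of iron out of cells, and *Cp* for ceruloplasmin, a copper ferroxidase of astrocytes and plasma. *Cp* rose 3.73-fold to 5.69-fold and spread widely among TBI mice, over 22.5 to 203 CPM. E3/Abca1+/+ mice ranged from 10.9 to 19.5 CPM in sham mice (median 13.8, n = 8) and from 24.8 to 127 CPM in TBI mice (median 50.5, n = 8) (log2 fold change 2.06, standard error 0.28, edgeR adjusted p = 1.43e-05). The E4/Abca1+/+ group ranged from 9.43 to 22.3 CPM in sham mice (median 14.7, n = 7) and from 22.5 to 161 CPM in TBI mice (median 34.0, n = 7) (log2 fold change 1.90, standard error 0.41, edgeR adjusted p = 0.00445), where 2 of the 7 TBI mice, at 161 and 99.7 CPM, lay far above the other 5 at 22.5 to 35.6 CPM. Without the highest of them the log2 fold change was 1.45. For E3/Abca1+/- mice *Cp* ranged from 9.67 to 15.7 CPM in sham mice (median 14.2, n = 7) and from 22.9 to 80.7 CPM in TBI mice (median 48.9, n = 6) (log2 fold change 2.01, standard error 0.23, edgeR adjusted p = 7.91e-06). In the E4/Abca1+/- group it ranged from 11.1 to 25.6 CPM in sham mice (median 13.2, n = 7) and from 26.8 to 203 CPM in TBI mice (median 65.4, n = 8) (log2 fold change 2.51, standard error 0.36, edgeR adjusted p = 4.58e-05). Astrocyte markers were also higher after TBI, 6 of 7 passing the test in each genotype. Their summed level was 4743 to 6172 CPM in sham and 6005 to 10080 CPM in TBI mice, and their part in the rise of *Cp* was not tested.

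*Slc40a1* rose 1.41-fold to 1.68-fold. Its values in E3/Abca1+/+ mice lay at 9.34 to 11.9 CPM in sham mice (median 10.5, n = 8) and 12.1 to 20.0 CPM in TBI mice (median 15.0, n = 8) (log2 fold change 0.57, standard error 0.10, edgeR adjusted p = 0.000221), a narrow gap but no overlap. In E4/Abca1+/+ mice they lay at 8.93 to 13.3 CPM in sham mice (median 11.2, n = 7) and 11.9 to 20.7 CPM in TBI mice (median 17.1, n = 7), with 5 of 7 TBI mice above every sham mouse (log2 fold change 0.50, standard error 0.13, edgeR adjusted p = 0.0164). This call was lost without the choroid plexus libraries (log2 fold change 0.36, standard error 0.15, edgeR adjusted p = 0.183), which left 5 mice on each side. E3/Abca1+/- mice had 9.35 to 13.1 CPM in sham mice (median 11.7, n = 7) and 13.6 to 21.7 CPM in TBI mice (median 14.6, n = 6), without overlap (log2 fold change 0.49, standard error 0.12, edgeR adjusted p = 0.00579). E4/Abca1+/- mice had 9.65 to 12.2 CPM in sham mice (median 10.5, n = 7) and 11.03 to 22.9 CPM in TBI mice (median 18.4, n = 8), and 1 of the 8 TBI mice, replicate 6 at 11.03 CPM, stayed inside the sham range (log2 fold change 0.75, standard error 0.12, edgeR adjusted p = 0.000158). The same mouse stood apart for *App*, which codes for the amyloid precursor protein, with 4854 CPM against 1673 to 2241 CPM in the other 57 mice. Without it *Slc40a1* changed by 0.84 (edgeR adjusted p = 1.65e-06), and the other calls in E4/Abca1+/- mice were kept.

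The related transporters *Slc11a1* and *Slc11a2* differed. *Slc11a1*, known as NRAMP1 and expressed in macrophages and microglia, showed the largest mean change of the list (log2 fold change 2.39, standard error 0.12, edgeR adjusted p = 4.18e-24). Its E3/Abca1+/+ values went from 1.72 to 3.22 CPM in sham mice (median 2.26, n = 8) and from 7.82 to 18.8 CPM in TBI mice (median 11.3, n = 8) (log2 fold change 2.33, standard error 0.19, edgeR adjusted p = 3.93e-08). Those in E4/Abca1+/+ mice went from 1.50 to 2.90 CPM in sham mice (median 2.13, n = 7) and from 6.48 to 19.0 CPM in TBI mice (median 8.00, n = 7) (log2 fold change 2.20, standard error 0.25, edgeR adjusted p = 4.39e-05), TBI mice falling into a cluster of 5 at 6.48 to 9.55 CPM and a pair at 14.0 and 19.0 CPM. E3/Abca1+/- mice went from 1.45 to 2.90 CPM in sham mice (median 2.15, n = 7) and from 7.83 to 15.3 CPM in TBI mice (median 12.2, n = 6) (log2 fold change 2.44, standard error 0.17, edgeR adjusted p = 8.21e-08). E4/Abca1+/- mice went from 1.48 to 5.17 CPM in sham mice (median 2.58, n = 7) and from 10.3 to 24.1 CPM in TBI mice (median 16.5, n = 8) (log2 fold change 2.60, standard error 0.24, edgeR adjusted p = 1.04e-06), the highest sham mouse, at 5.17 CPM, being the one that stood apart for injury response genes. Without it the log2 fold change in E4/Abca1+/- mice was 2.82. The reads behind one value of *Slc11a1* numbered as few as 8, so its single levels in shallow libraries are imprecise.

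*Slc11a2*, which codes for DMT1, the transporter that moves iron across the membrane of the gut cell and of the endosome, stayed within 41.4 to 59.2 CPM in all 58 mice. No genotype passed the test, the log2 fold changes running from -0.11 (95% interval -0.22 to 0.00, edgeR adjusted p = 0.227) in E4/Abca1+/+ to -0.03 (95% interval -0.13 to 0.08, edgeR adjusted p = 0.759) in E4/Abca1+/- mice, where thinning to equal depth turned the sign (0.08, edgeR adjusted p = 0.371). Averaged over the genotypes the change was small and passed the test (log2 fold change -0.07, standard error 0.03, edgeR adjusted p = 0.0363), and it did not after thinning to equal depth (-0.06, edgeR adjusted p = 0.138) or without the mouse that stood apart for *App* (-0.06, edgeR adjusted p = 0.0555). No TBI mouse lay above the highest sham mouse, and 5 of 29 lay below the lowest.

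On the uptake side, the receptor fell and its ligand rose. *Tfrc*, which codes for the receptor that brings iron-loaded transferrin into cells and is rich in neurons and brain endothelium, fell in E4/Abca1+/+ mice, where it ran from 111 to 135 CPM in sham mice (median 117, n = 7) and from 71.4 to 105 CPM in TBI mice (median 86.1, n = 7), without overlap (log2 fold change -0.49, standard error 0.08, edgeR adjusted p = 0.000696). In E4/Abca1+/- mice it went from 99.0 to 129 CPM in sham mice (median 118, n = 7) and from 61.1 to 114 CPM in TBI mice (median 86.3, n = 8), 5 of 8 TBI mice lying below every sham mouse (log2 fold change -0.38, standard error 0.12, edgeR adjusted p = 0.0231). That call was lost without the choroid plexus libraries, at 4 mice a group, where the change was -0.44 (standard error 0.20, edgeR adjusted p = 0.159). The E3 mice were lower without passing the test, by -0.26 with both *Abca1* copies (95% interval -0.45 to -0.06, edgeR adjusted p = 0.0693) and by -0.30 with a single copy (95% interval -0.52 to -0.07, edgeR adjusted p = 0.0713). Both passed it with DESeq2's Wald test (DESeq2 adjusted p = 0.0447 and 0.0329). The *APOE* isoforms were not shown to differ in this change, since the isoform by injury interaction of *Tfrc* was -0.23 (95% interval -0.50 to 0.04, edgeR adjusted p = 1.00) in Abca1+/+ mice. All 7 neuronal markers fell on average, from 7848 to 8907 CPM summed in sham to 5606 to 7947 CPM in TBI mice, while 5 of 6 endothelial markers rose.

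*Trf* rose 1.35-fold to 1.73-fold. E3/Abca1+/+ mice held 200.4 to 309.7 CPM in sham mice (median 235, n = 8) and 274 to 431 CPM in TBI mice (median 343, n = 8), and 6 of 8 TBI mice lay above every sham mouse (log2 fold change 0.44, standard error 0.11, edgeR adjusted p = 0.00471). In the E4/Abca1+/+ group levels were 160.1 to 290.3 CPM in sham mice (median 234, n = 7) and 251 to 603 CPM in TBI mice (median 302, n = 7), and 1 TBI mouse, at 603 CPM, lay far above the next at 380.3 CPM (log2 fold change 0.53, standard error 0.17, edgeR adjusted p = 0.0431). Without that mouse the log2 fold change was 0.35 (edgeR adjusted p = 0.0662), and the call was also lost in 8 other cases of a single mouse left out. E3/Abca1+/- mice held 181 to 299 CPM in sham mice (median 226, n = 7) and 309 to 439.9 CPM in TBI mice (median 357, n = 6), without overlap (log2 fold change 0.66, standard error 0.11, edgeR adjusted p = 0.000266). E4/Abca1+/- mice held 220.1 to 308 CPM in sham mice (median 253, n = 7) and 254 to 603 CPM in TBI mice (median 451, n = 8), 7 of 8 above every sham mouse (log2 fold change 0.79, standard error 0.14, edgeR adjusted p = 0.000365). Of 8 oligodendrocyte markers, 0 rose in Abca1+/+ mice of either isoform, and among Abca1+/- mice 1 rose with E3 and 5 with E4. Their sum was 2407 to 3833 CPM in sham and 2497 to 4231 CPM in TBI mice. Libraries rich in choroid plexus markers had a *Trf* median of 269.8 CPM in sham and 423.7 CPM in TBI mice, the others 225.7 and 333.6 CPM. Without them the mean change was 0.62 (standard error 0.08, edgeR adjusted p = 2.00e-08). The call in E4/Abca1+/+ mice was lost at 5 mice a group (0.44, standard error 0.13, edgeR adjusted p = 0.0570).

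The next question is whether *Abca1* copies mattered. None of the 9 genes passed the test between Abca1+/- and Abca1+/+ mice in E3 sham, E3 TBI, E4 sham or E4 TBI mice (edgeR, where 2.27%, 0.0923%, 0.87% and 1.36% of all genes did), and 1, 0, 1 and 4 of them had an unadjusted p under 0.05, as did 16.4%, 9.18%, 15.9% and 18.3% of all genes. The 4 in injured E4 mice were *Slc11a1*, *Ftl1*, *Fth1* and *Hmox1*. There *Slc11a1* had 6.48 to 19.0 CPM in TBI mice (median 8.00, n = 7) with both copies and 10.3 to 24.1 CPM in TBI mice (median 16.5, n = 8) with a single copy (log2 fold change 0.80, standard error 0.24, edgeR adjusted p = 0.101). *Hmox1* had medians of 12.0 and 19.3 CPM in the same groups (log2 fold change 0.54, standard error 0.26, edgeR adjusted p = 0.271). For *Ftl1* they were 64.99 and 93.1 CPM (log2 fold change 0.46, standard error 0.18, edgeR adjusted p = 0.184). The ranges of *Slc11a1* overlapped. A single fit over all 58 mice called *Slc11a1*, *Ftl1* and *Fth1* higher (edgeR adjusted p = 0.00968, 0.0183 and 0.0433), and DESeq2's Wald test called *Slc11a1* (DESeq2 adjusted p = 0.0270). Without the choroid plexus libraries, which left 5 Abca1+/+ and 4 Abca1+/- mice, the difference in *Slc11a1* was 0.78 (standard error 0.26, edgeR adjusted p = 0.336). Injury response genes had a median sum of 209.1 CPM with both copies and 548.9 CPM with a single copy in these mice, and microglial markers of 722.1 and 989.8 CPM. Of these markers 0 of 5 and 1 of 8 passed the test, and their part in the differences was not tested.

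Averaged over isoform and injury, *Ftl1* (log2 fold change 0.21, standard error 0.07, edgeR adjusted p = 0.0201) and *Fth1* (log2 fold change 0.12, standard error 0.04, edgeR adjusted p = 0.0219) were higher in Abca1+/- mice, where 9.49% of all genes were higher and 8.39% lower. Depth differed in the same direction. With the log2 total count as a covariate, chosen after seeing the data, both genes kept their call. This fit cannot separate depth from *Abca1* copies, since 21 of the 28 Abca1+/- libraries were deeper than every Abca1+/+ library. Without the choroid plexus libraries *Ftl1* kept it (0.22, edgeR adjusted p = 0.0391) and *Fth1* did not (0.11, edgeR adjusted p = 0.115). The test of whether TBI acted differently by *Abca1* copies passed for none of the 9 genes, and for 0 of all genes, in either isoform. In E4 mice all 9 interaction estimates were above 0, at 0.08 to 0.61, none with an unadjusted p under 0.05. Of all genes, 4.81% had such a p in E4 mice, and the median estimate over all genes was also above 0, at 0.02. Members that rose after TBI varied together from mouse to mouse, as given below, so the 9 signs are not independent of each other. The comparison shares its mice with the one above.

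The isoform comparison gave no call either. In Abca1+/+ sham, Abca1+/+ TBI, Abca1+/- sham and Abca1+/- TBI mice 0 of the 9 genes differed between E4 and E3 by edgeR (0.356%, 0.211%, 5.11% and 2.74% of all genes did), and 1, 0, 1 and 1 had an unadjusted p under 0.05, beside 8.81%, 7.18%, 23% and 19.1% of all genes. The single one among injured Abca1+/- mice was *Slc11a1*, with 7.83 to 15.3 CPM in TBI mice (median 12.2, n = 6) for E3 and 10.3 to 24.1 CPM in TBI mice (median 16.5, n = 8) for E4 (log2 fold change 0.59, standard error 0.20, edgeR adjusted p = 0.115). DESeq2's Wald test called this 1 gene higher (DESeq2 adjusted p = 0.0478), as did edgeR without the mouse that stood apart for *App* (0.68, edgeR adjusted p = 0.0457). Without the choroid plexus libraries, which left 5 E3 and 4 E4 mice, the difference was 0.30 (standard error 0.22, edgeR adjusted p = 0.705). Beside it, 3 of 8 microglial markers were higher in E4 mice (median sums 748.9 CPM for E3 and 989.8 CPM for E4), and injury response genes had median sums of 378.1 and 548.9 CPM with 0 of 5 passing. Their part in the difference was not tested. Averaged over *Abca1* copies and injury, none differed (largest 0.24 for *Cp*, 95% interval -0.11 to 0.60, edgeR adjusted p = 0.402), where 15% of all genes did. Without the choroid plexus libraries the difference in *Cp* was 0.03 (edgeR adjusted p = 0.973). The isoform by injury interaction passed for none of the 9 genes and 0 of all genes by edgeR, with either number of *Abca1* copies, and 1 of the 9 (*Ftl1*, 0.35 in Abca1+/- mice) had an unadjusted p under 0.05, beside 6.36% of all genes. For the joint action of isoform and *Abca1* copies in injured mice, the smallest p was that of *Slc11a1* (interaction 0.84, 95% interval 0.20 to 1.48, edgeR adjusted p = 0.394, where 0.00659% of all genes passed and 10.2% had an unadjusted p under 0.05).

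Sex was the other division of every group. *Fth1* and *Cp* were lower in males when groups were held equal (*Fth1* log2 fold change -0.15, standard error 0.03, edgeR adjusted p = 0.00205 and *Cp* log2 fold change -0.50, standard error 0.17, edgeR adjusted p = 0.0487), as 5.21% of all genes were, while 4.94% were higher. *Fth1* ran from 850.1 to 1157 CPM in 15 male and 922 to 1188 CPM in 14 female sham mice, and from 919 to 1416 CPM in 15 male and 1090 to 1531 CPM in 14 female TBI mice. *Cp* had medians of 13.6 CPM in male and 14.3 CPM in female sham mice, against 36.7 and 69.6 CPM in TBI mice. Choroid plexus markers moved with sex, as given above, and libraries rich in them had medians among TBI mice of 1325 CPM for *Fth1* and 79.1 CPM for *Cp*, against 1181 and 44.2 CPM in the others. Without them 42 of the 58 mice were left and both calls were lost. The estimates were then -0.13 (standard error 0.04, edgeR adjusted p = 0.0891) for *Fth1* and -0.56 (standard error 0.19, edgeR adjusted p = 0.0952) for *Cp*, against -0.15 and -0.50 over all mice. The part of these libraries in the sex difference was not tested. Injury response genes also differed, summing to 229.0 to 1111 CPM (median 495.0) in female and 183.0 to 827.5 CPM (median 295.5) in male TBI mice, and their part in the sex difference was not tested. The injury by sex interaction passed for 0 of the 9 genes and 0 of all genes by edgeR, with 4 of the 9 (*Slc11a1*, *Cp*, *Ftl1* and *Slc40a1*) at an unadjusted p under 0.05 and estimates from -0.86 to -0.25. This p was reached by 7.47% of all genes, and among the members only by *Cp* without the choroid plexus libraries (-0.76, standard error 0.37, edgeR adjusted p = 0.975).

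Among the 29 TBI mice, the genes that rose also varied together from mouse to mouse. Of the 36 pairs of genes, 20 passed Benjamini-Hochberg adjustment over the pairs in a two-sided permutation test of Pearson's r of log2(CPM + 1), all 20 positive. The lowest r among the 20 was 0.560, and 3.03% of all pairs of the 15171 genes, or 9.12% of pairs among the 4403 genes that rose on average, had an r at least this far from 0. These shares are descriptions. The closest were *Ftl1* with *Slc11a1* (r = 0.91, rho = 0.94, p = 1e-05, adjusted p = 3e-05, n = 29 by permutation) and *Hmox1* with *Ftl1* (r = 0.91, rho = 0.865, p = 1e-05, adjusted p = 3e-05, n = 29 by permutation), at the smallest p that 100000 resamples can give. Within Abca1+/+ and Abca1+/- mice, which differed in depth, r was 0.90 and 0.90 for the former pair and 0.89 and 0.95 for the latter. Leaving out the 2 mice farthest from the median of the first gene gave 0.90 and 0.89. *Slc11a2* formed none of the 20 pairs, and *Tfrc* none, its r running from -0.38 with *Hmox1* to 0.11 with *Slc11a2*. *Fth1* was tied less evenly. Its r with *Trf* was 0.73 in Abca1+/+ and 0.13 in Abca1+/- mice, and with *Slc40a1*, a pair that did not pass, 0.58 and 0.03. After group means were subtracted, 22 pairs passed, 2 of them negative. These were *Tfrc* with *Hmox1* (r = -0.46, adjusted p = 0.0238 by permutation) and *Tfrc* with *Ftl1* (r = -0.42, adjusted p = 0.0392 by permutation).

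**Figure D4:**
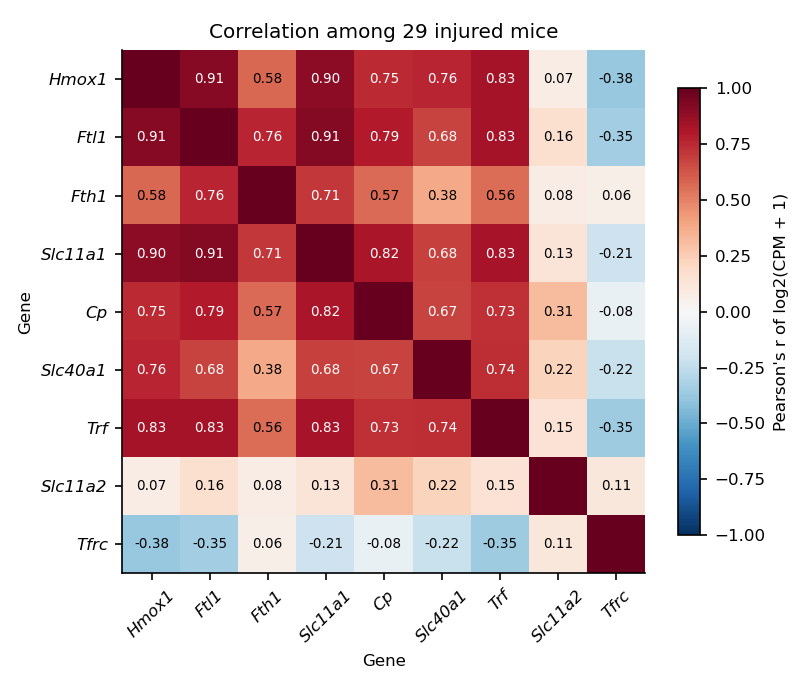
Each cell gives Pearson's r of log2(CPM + 1) for a pair of genes over the 29 TBI mice, from blue at -1 to red at 1, with the diagonal set to 1. The 7 genes that rose on average form a block from 0.38 (*Fth1* with *Slc40a1*, which did not pass) to 0.91, and *Slc11a2* and *Tfrc* stand outside it.

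The order of mice shows the same block. E4/Abca1+/- TBI replicate 3, a female, was the highest of the 29 TBI mice for 5 of the 7 genes that rose on average and among the highest 3 for 6 of them, and it had the highest sum of injury response genes (1111 CPM) and 1443 CPM of choroid plexus markers. At the other end, E4/Abca1+/+ TBI replicate 4, a male, was lowest for 4 of the 7 genes and among the lowest 3 for 6, and its injury response sum, 183.0 CPM, was the lowest of the TBI mice. E4/Abca1+/+ TBI replicate 6, the mouse that stood apart for *Trf*, was second for injury response genes (975 CPM) and also held 1783 CPM of choroid plexus markers. The injury response genes were chosen after their values were seen and include *Cd68*, *Clec7a* and *Vim*, the genes most like *Slc11a1*. Their order among mice and that of the members are thus not independent. How far the extent of injury in the tissue sampled set these values was not tested.

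Genes most like each member were ranked by Pearson's r of log2(CPM + 1) over the 58 mice, which fall into sham and TBI clusters, so r within each is given as well. *Slc11a1* was closest to *Cd68*, *Clec7a* and *Vim* (r = 0.98 each, 0.95, 0.95 and 0.90 in TBI and 0.60, 0.67 and 0.70 in sham mice). For *Ftl1* they were *Ctsd*, *Grn* and *Cd63* (r = 0.97 each, 0.92 to 0.95 in TBI and 0.45 to 0.58 in sham mice), and for *Hmox1* they were *Cd9*, *Arpc1b* and *Ctsd* (r = 0.95 to 0.96). *Cp* was closest to *Spp1*, *Anxa5* and *Serping1* (r = 0.96 each), *Slc40a1* to *Fcrls*, *Slc1a3* and *Itgb5* (0.88 to 0.89), *Trf* to *Gsn*, *Ddr1* and *Cd82* (0.89 to 0.91) and *Fth1* to *Pfn1*, *Cotl1* and *Lpl* (0.82 to 0.84). *Tfrc* was closest to *Rapgef4*, *Herc3* and *Chn1* (0.75 to 0.76), and *Slc11a2* to *Wdr90*, *Cluh* and *Dennd4b* (0.53 to 0.63), the lowest likeness of the list. All share libraries, depth and tissue make-up, and the values are descriptions.

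The rest of the pathway was taken from 8 lists with 75 genes, 60 of them in the table. In E3 mice, 11 of the 60 rose after TBI and 3 fell with both *Abca1* copies, and 13 rose and 1 fell with a single copy. These stand beside 13.3% and 9.49%, and 13.7% and 10.1%, of all genes. In E4 mice these counts were 9 and 1 (9.24% and 4.5% of all genes), and 20 and 1 (19.7% and 12.7%). The median log2 fold changes of the 60 were 0.04 to 0.11. Averaged over the genotypes, 28 rose and 5 fell, beside 29% and 24.3% of all genes. Uptake held the largest changes, with 7 of 10 genes higher. *Lcn2*, which codes for lipocalin 2, a protein that binds iron-carrying siderophores, went from a mean of 0.97 to 103.7 CPM (log2 fold change 7.19, standard error 0.45, edgeR adjusted p = 2.11e-20). The metalloreductase *Steap4* went from 0.74 to 47.5 CPM (6.08, standard error 0.40, edgeR adjusted p = 2.23e-19), and *Cybrd1*, a ferric reductase, from 4.91 to 16.3 CPM (1.74, standard error 0.12, edgeR adjusted p = 2.46e-19).

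Among 6 genes of iron sensing, *Hfe*, a partner of the transferrin receptors (1.14, edgeR adjusted p = 1.08e-14), *Bmp6*, an inducer of hepcidin (0.85, edgeR adjusted p = 2.42e-07), and *Aco1*, which codes for iron regulatory protein 1 (0.08, edgeR adjusted p = 0.0144), rose on the log2 scale on average. Of 3 genes of iron delivery to and release from ferritin only the chaperone *Pcbp2* rose (0.07, edgeR adjusted p = 0.00275). Neither of the export partners *Heph* and *App* passed the test on average, a fit that includes the mouse that stood apart for *App*. Within single genotypes, 1 of the 2 fell in E3/Abca1+/+ and 1 in E3/Abca1+/- mice, beside 9.49% and 10.1% of all genes. Among genes of mitochondrial iron and iron-sulphur clusters, the sulphur donor *Nfs1* rose (0.07), and *Abcb10* (-0.10) and the importer *Slc25a37* (-0.13) fell. In heme synthesis 2 of 9 genes rose and 1 fell, beside 29% and 24.3% of all genes. *Ppox* was higher (0.21), and *Alas2*, the form of the first enzyme used by red cells, was lower (-0.58, edgeR adjusted p = 0.0452). *Alas2* is also among the 4 red blood cell markers traced below, whose sum was low, with medians of 2.31 CPM in sham and 1.88 CPM in TBI mice.

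In heme breakdown and transport 6 of 11 genes rose on average, among them *Blvrb* (log2 fold change 0.23, edgeR adjusted p = 8.38e-05), a biliverdin reductase, *Slc46a1* (0.15, edgeR adjusted p = 0.000135), a heme and folate carrier, and *Abcg2* (0.23, edgeR adjusted p = 2.56e-06), an efflux pump that accepts porphyrins. On average over the genotypes 29% of all genes rose. Within single genotypes, taken in the order of the *Hmox1* values above, 1, 0, 0 and 4 of the 11 genes passed. Of all genes, 13.3%, 9.24%, 13.7% and 19.7% rose in that same order. Of the 12 genes of the NRF2 and BACH1 system, which sets *Hmox1* transcription, 8 rose and 1 fell on average. These stand beside 29% and 24.3% of all genes, and the part of this system in the rise of *Hmox1* was not tested. *Nfe2l2*, which codes for NRF2, rose from 19.9 to 40.4 CPM (log2 fold change 1.00, standard error 0.08, edgeR adjusted p = 1.39e-16). Its repressing counterpart *Bach1* rose less (0.36, standard error 0.05, edgeR adjusted p = 9.75e-10). *Osgin1* rose by 1.54 from a low level (0.45 to 1.29 CPM), and *Srxn1* was lower (-0.09, edgeR adjusted p = 0.00136).

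Other cells of an injured brain were also traced by marker lists. Border and infiltrating macrophage markers summed to 4.70 to 22.4 CPM in sham and 6.67 to 45.6 CPM in TBI mice, 6 of 7 rising on average, with *Ms4a7* at 0.35 and 4.03 CPM. Of the neutrophil markers only *S100a8* and *S100a9* were in the table, and *Camp*, *Ngp*, *Retnlg*, *Mmp8* and *Ltf* were not, so this trace of neutrophils is limited. The pair summed to at most 1.07 CPM in sham mice, reaching 0 in the lowest, and to 0.29 to 17.9 CPM in TBI mice. The *Hmox1* outlier of the E3/Abca1+/- group held the 17.9 CPM. Red blood cell markers summed to 0.23 to 17.2 CPM in sham and 0.17 to 8.45 CPM in TBI mice, and none of 4 rose in any genotype. The authors perfused the mice with cold buffered saline before removing the brain, and *Hba-a1*, *Hbb-bt* and *Hbb-b2* were not in the table. These sums thus say little about blood that entered at the injury, which was not tested.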

How the data were processed

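Deposited files hold whole-number read counts per gene and mouse, which the authors made by aligning reads with Subread (1.5.0) to mm10 and counting with featureCounts, per the submitters' processing notes. Strand setting, annotation release and the treatment of reads that match several genes are not given in the sources used here. Lines without a gene (2) were removed, leaving 15171 genes, and 23 symbols were taken from the identifier column. Mice were numbered within groups in the order of the sample records, and these numbers only name them. No 2 mice of a group held identical values (183 pairs).

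Counts were scaled by TMM (factors 0.9544 to 1.038) after filterByExpr, which removed 0 genes, and tested with edgeR's quasi-likelihood test (edgeR 4.0.16, R 4.3.3) in a separate fit per comparison, with Benjamini-Hochberg adjustment over all genes and a threshold of 0.05. Intervals are normal approximations from the standard error. Means over genotypes, sex and interactions came from fits over all mice concerned. DESeq2 (1.42.0) was an alternative, as were DESeq2 size factors, other filters, a sex covariate, thinning to 4421308 counts, a single fit and leaving out each mouse. The log2 total as covariate and leaving out 16 libraries over 100 CPM of choroid plexus markers, and 1 mouse that stood apart for *App* in comparisons beyond its own group, were chosen after seeing the data. The fit was tested on simulated counts. Correlations used log2(CPM + 1) with 100000 permutations (scipy 1.17.1), and nearest genes were the 3 with the highest r. The rule for named genes took the members and, from each other list, up to 3 genes per direction with the smallest p for the mean TBI effect among those past the threshold, and some of these are not reported here. *Hmox2*, *Heph*, *App*, *Abca1* and *Ms4a7* were added after their values were seen. Members, lists and markers were chosen with earlier results of these data known. Labels name separate mice but no batch.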

Additional observations from a re-analysis of the deposited data

Results flagged for a closer look

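In 3 of 72 sets of 1 gene in 1 group, the highest mouse lay farther from the rest than Dixon's 95% critical value allows, where chance gives about 1 in 20 sets. *Hmox1* in E3/Abca1+/- TBI mice was at 25.9 CPM in replicate 6, against 13.8 CPM in the next mouse. *Slc11a2* in E4/Abca1+/- sham mice was at 55.9 CPM in replicate 1, against 50.2 CPM in the next. *Trf* in E4/Abca1+/+ TBI mice was at 602.8 CPM in replicate 6, against 380.3 CPM in the next.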

How the results depend on the processing

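Alternatives were run for the TBI changes within genotypes, the *Abca1* difference in E4 TBI mice, the mean effects and 6 single values of isoform, interaction or sex. Other than leaving out single mice, 559 values under an alternative kept direction and side of the threshold, 9 lost the call, 8 gained it and 4 changed sign. Over the members in all 23 comparisons (207 values), 21 changed sign without the choroid plexus libraries, 0 of them called in either fit, and 7 calls were lost. No filter removed a gene. With DESeq2's Wald test or a sex covariate 1 gene (*Tfrc*) fell in E3/Abca1+/+ mice, and leaving out single mice gave 0 to 1. In E3/Abca1+/- mice DESeq2 also gave 1 and leaving out single mice 0 to 1. Without the choroid plexus libraries 0 genes fell in E4/Abca1+/- mice, 0 were lower in males and 1 was higher in the mean *Abca1* effect. Between *Abca1* copies in E4 TBI mice 3 genes were higher in the single fit and 1 with DESeq2, which also gave 1 between isoforms in Abca1+/- TBI mice. In the mean TBI effect 1 gene fell after thinning and 1 with the log2 total count as covariate. Without E4/Abca1+/- TBI replicate 6, which stood apart for *App*, 1 fell in the mean TBI effect, 1 was higher between isoforms in Abca1+/- TBI mice, and *Tfrc* between *Abca1* copies in E4 TBI mice turned to -0.007654. The sign of *Slc11a2* in E4/Abca1+/- mice turned after thinning (0.08185) and without sham replicate 1 or TBI replicate 6 (-0.05628 to 0.003754 over all single mice left out). It also turned between *Abca1* copies in E4 TBI mice after thinning (0.03408). Without the choroid plexus libraries *Tfrc* in that comparison was -0.01668 and *Ftl1* in the mean isoform effect -0.01504. The causes were not tested. No paired analysis was possible because each mouse has its own animal number and no number is shared between groups. Low counts limit *Slc11a1* and *Hmox1* most (from 8 and 22 reads), and groups of 6 to 8 mice limit every interaction. P-values cover the spread between these mice.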
